A study of Mus musculus with 388 samples.

Results

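A set of 10 genes of the adipocyte lineage was followed through single bone marrow stromal cells of the mouse: the transcription factors Pparg, Cebpa, Cebpb, Cebpd, Zfp423, Zfp521 and Klf15, and the genes Adipoq, Lpl and Apoe, whose products are secreted. They were taken by symbol, all 10 were found, and they are 10 of the 25000 gene rows of the deposited table. The cells came from bone marrow of 2-month-old C57BL/6 mice of the genotype KitMerCreMer; R26tdTomato, sorted as CD45-, Ter119-, CD31- and PDGFRα+, and both groups share that genotype, the sort and tamoxifen given before birth at E12.5 and E14.5. Tomato+ cells carry the recombined red reporter and so descend from fetal cells in which the Kit locus drove the inducible Cre, and Tomato- cells lack it. The reporter is permanent, so it records Kit expression in the fetus and not in the adult cell, and cells missed by the tamoxifen would be counted as Tomato-. Cell titles give 2 orders, called order 1 and order 2 here. Order 1 holds the Tomato+ sets P1, P2 and P3 (94, 5 and 40 cells) and the Tomato- set N2 (60 cells), and order 2 holds the Tomato+ sets P1 and P2 (24 cells each) and the Tomato- sets N1 and N2 (71 and 70 cells). The labels do not say what the orders and sets stand for or how many animals were used. Each group is therefore 1 sample: no test was made, and every interval covers counting error only.

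Adipocytes arise from mesenchymal precursors through a cascade of transcription factors. Cebpb and Cebpd act early in it, and Pparg and Cebpa follow, activate each other and drive the genes of the fat cell. Zfp423 is a zinc finger protein that commits precursors to the adipocyte lineage, its close relative Zfp521 counteracts it, and Klf15 is a Krüppel-like factor that acts late and raises Pparg. Adipoq encodes adiponectin, Lpl the lipase that frees fatty acids from circulating lipoproteins, and Apoe an apolipoprotein that carries lipid between cells. In adult marrow the perivascular stromal cells that make Cxcl12 and leptin receptor are known to include adipocyte progenitors, which transcribe adipocyte genes without storing lipid.

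After 2 shallow Tomato+ cells of the set P3 of order 1 were left out, 386 cells remained, with a median total of 679648 counts and a range of 18032 to 3833480. Medians were 774175 counts in Tomato+ and 500702 in Tomato- cells of order 1, and 653684 and 649238 in order 2. Cells were classed by summed markers. The 10 Lepr+ stroma markers outweighed each list for another cell type in 370 cells, and a list for another cell type outweighed them in 16. Cxcl12 alone came to 22490 to 53092 CPM over the combinations of group and order, so this rule leans to stroma. It does not establish that each of the 370 cells is stromal. Pdgfra, a sort marker, had at least 5 counts in 77.5% of cells. Lepr, Cxcl12 and Kitl had them in 100%, the 16 cells included, so a count of these genes does not tell the cells apart. Of these, 12 were Tomato- cells of order 2 led by myeloid or lymphoid markers, 3 were Tomato+ cells led by endothelial markers, and 1 was a Tomato- cell of order 1 led by pericyte markers, although the sort was meant to remove blood and endothelial cells. Myeloid markers together came to 15266 CPM, the summed counts of a gene scaled to a common total, in Tomato- cells of order 2. They came to 52.9 to 99.6 CPM in the other 3 combinations of group and order. At least 3 myeloid markers had 5 counts each in 110 Tomato- and 13 Tomato+ cells of order 2. The same held for 1 Tomato- and 2 Tomato+ cells of order 1. Myeloid counts were thus not confined to the cells led by such markers. Markers of mature fat cells stayed near 0: Cidec, Adig, Lep and Ucp1 had no count in any kept cell, and the summed level of the 7 markers ran from 5.74 to 17.2 CPM.

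Counts of the secreted products were also found in cells led by blood markers. The 12 cells led by blood markers, with a median of 885324 counts against 670441 in the 370 cells led by stroma markers, all held at least 5 counts of Adipoq. Their summed Adipoq level was 44.9 CPM (95% interval 40.8 to 49.3), against 3253 CPM in the stroma-led cells. Their Lpl level was 44.5 CPM against 1811, and their Apoe level 266 CPM against 5714. Counts of these 3 genes were found in all 386 cells, so they are read by level and not by presence. Myeloid cells are known to transcribe Apoe, and whether stray reads, doublets or the cells themselves gave these counts was not tested. Of the regulators, Cebpb, Zfp423 and Klf15 reached 5 counts in 0 of the 12 blood-led cells, which allows a share of up to 26.5%, and Pparg and Zfp521 in 1 each. Cebpa did so in 33.3% of them and Cebpd in 66.7%; both are known to be transcribed in myeloid cells as well.

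**Figure D1:**
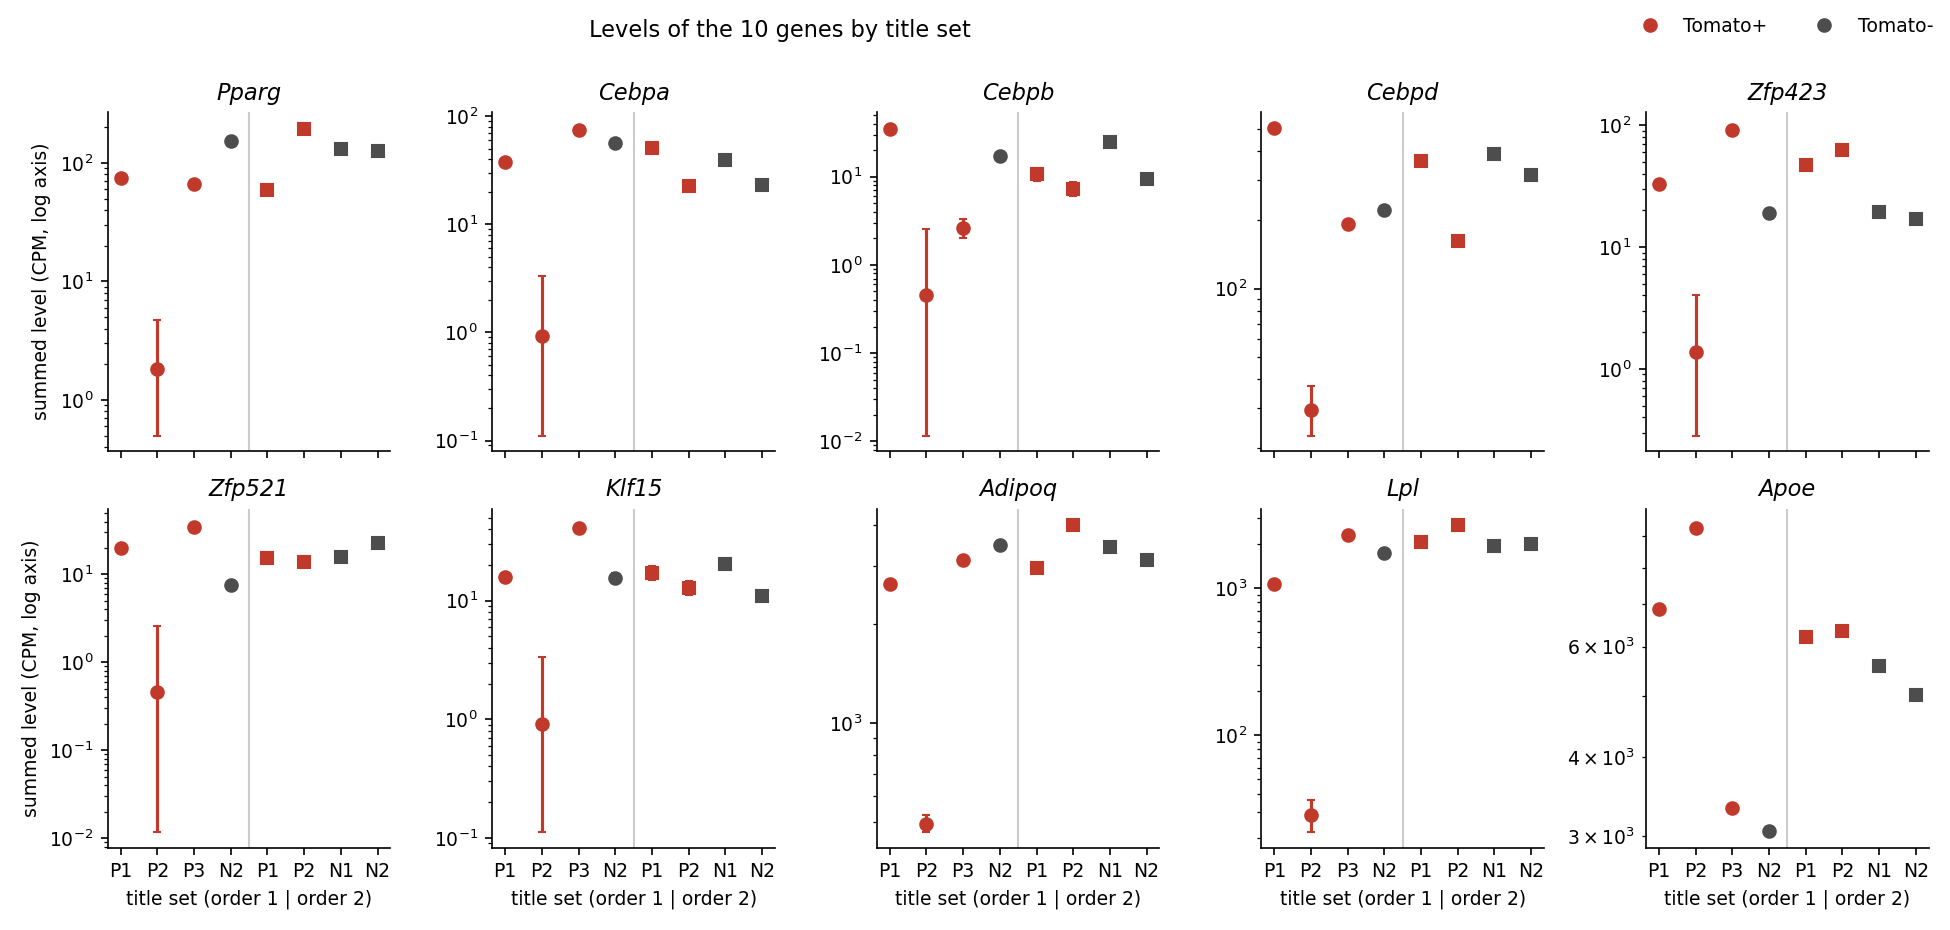
Level of each gene in each title set, in CPM of the set's summed counts on a log axis. Red marks Tomato+ and grey Tomato- sets, circles order 1 and squares order 2, and bars are exact Poisson 95% intervals, mostly smaller than the symbol. The set P2 of order 1, with 5 cells, stands far below the others for all genes but Apoe.

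The design asks whether cells from Kit-expressing fetal precursors differ from the other stromal cells in this lineage programme. It was measured by the log2 ratio, Tomato+ over Tomato-, of CPM with 1 added, taken inside each order. A gene was called higher or lower when it differed more than 1.5-fold the same way in both orders, and when its higher group reached 20 CPM with 20% of cells holding a count. Of the 10 genes, 8 passed the filter on low values (Cebpb and Klf15 did not), 1 was higher (Zfp423) and 0 were lower. Over the 6547 genes that passed the filter, 3.24% were higher and 4.54% lower. The remaining 9 genes gave no call, and 8 of the 10 pointed in opposite directions in the 2 orders, Cebpb and Klf15 included. Of the 8 that passed the filter, Pparg, Cebpa, Cebpd, Zfp521, Adipoq and Lpl did so, against 46.4% of all genes that passed.

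More of these genes passed 1.5-fold in order 1 than in order 2, as did more of all genes. Of the 8 that passed the filter, 4 were more than 1.5-fold higher in Tomato+ cells of order 1 (Cebpd, Zfp423, Zfp521 and Apoe), where 28.2% of all genes were, and 1 was lower (Pparg), against 23.8%. In order 2, 1 was higher (Zfp423), against 8.78% of all genes, and 0 were lower, against 14.3%. The median ratio of the 10 genes was 0.52 in order 1 and 0.10 in order 2, and 0.08 for the mean of the orders, where all genes that passed gave 0.01.

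**Figure D2:**
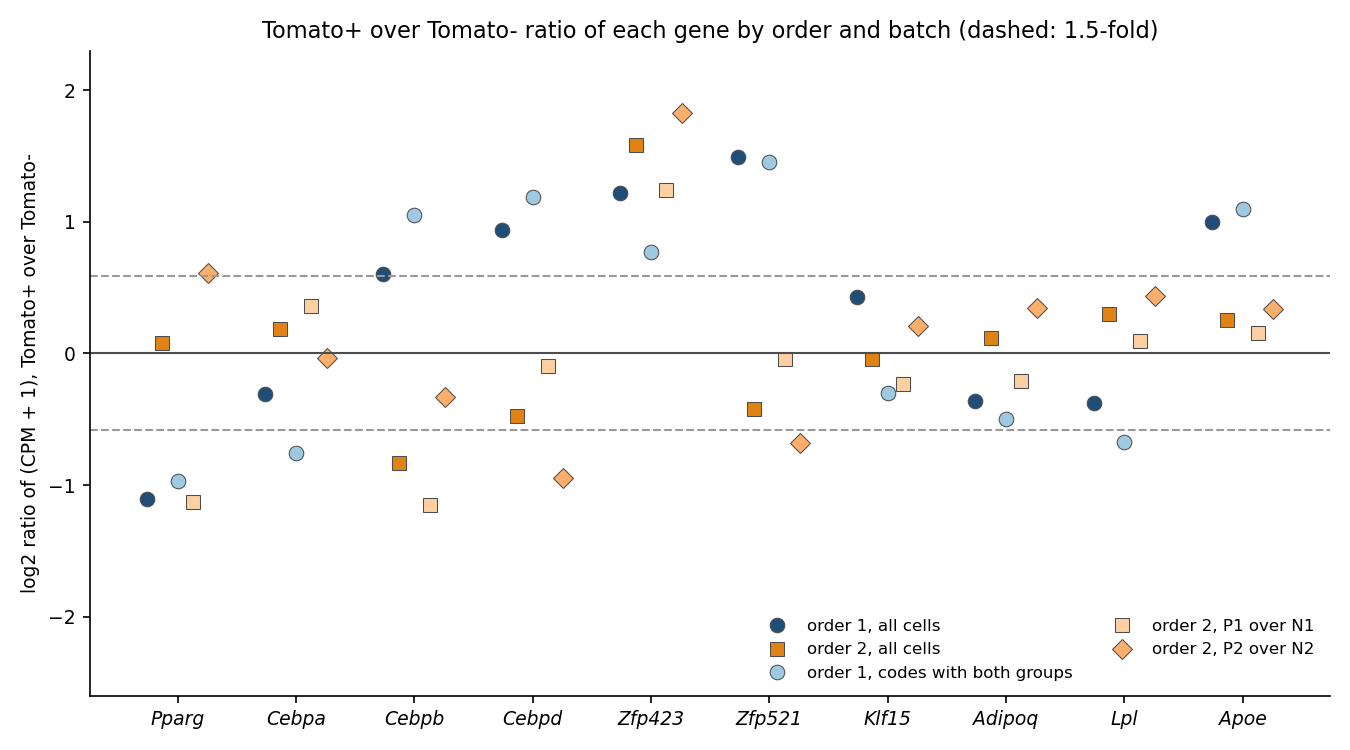
Log2 ratio (CPM with 1 added, Tomato+ over Tomato-) for each gene in each order and in 3 smaller comparisons inside the orders. These are the library codes of order 1 that hold both groups, and the equally numbered sets of order 2, and dashed lines mark 1.5-fold. All 5 values of Zfp423 lie above the upper line, and those of Apoe lie above 0, while the other genes have values on both sides of 0.

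Zfp423, the commitment factor (chromosome 8, 87661810 to 87959595, minus strand, GRCm38), was the gene with the higher level in Tomato+ cells in both orders. Its level in the Tomato+ sets of order 1 was 32.9 CPM in P1, 1.38 in P2 and 91.6 in P3, against 19.04 CPM in the Tomato- set N2. In order 2 it was 46.9 CPM in P1 and 62.4 in P2, against 19.3 in N1 and 16.8 in N2. Every Tomato+ set except P2 of order 1, which holds 5 cells, stood above every Tomato- set.

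Summed over the cells of a group, Zfp423 came to 45.6 CPM in Tomato+ (44.4 to 46.9) and 19.04 CPM in Tomato- cells of order 1 (17.6 to 20.6). In order 2 the Tomato+ sum was 55.8 CPM (53.2 to 58.5) and the Tomato- sum 17.9 CPM (17.1 to 18.8). This gave log2 ratios of 1.22 and 1.59, which average 1.40. Within the library codes of order 1 that hold both groups the ratio was 0.77, and within the equally numbered sets of order 2 it was 1.24 and 1.83. In 6 of the 7 shared codes the Tomato+ level was the higher, with code ratios from -4.74 to 6.41 over 2 to 12 cells a group.

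The order 1 value leaned on 1 cell. A cell of P3 held 1138 CPM of Zfp423 and 32.1% of all Zfp423 counts of Tomato+ cells of that order. It was led by endothelial markers, with 1375 CPM of Kdr and 34.9 CPM of Lepr. Without the 16 cells led by markers of another type the levels were 31.6 and 19.4 CPM in order 1 and 53.99 and 20.1 CPM in order 2. The ratios then were 0.68 and 1.38, so Zfp423 still passed the size rule, with a mean of 1.03 in place of 1.40. Without the set P3 the order 1 ratio was 0.72.

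More Tomato+ cells than Tomato- cells held Zfp423 in order 2. The share of cells with at least 5 counts was 50% (35.2 to 64.8) for Tomato+ and 25.5% (18.6 to 33.6) for Tomato-, intervals that do not overlap. After each cell was thinned to 150000 counts the shares were 39.6% (25.8 to 54.7) and 19.3% (13 to 26.9), which overlap slightly. In order 1 they were 16.1% (10.3 to 23.3) and 8.33% (2.76 to 18.4), and 11.3% and 9.43% after thinning, so no difference in the share was detectable there at this depth. The median Tomato+ cell of order 2 held 4.37 CPM, while the other 3 medians were 0.

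**Figure D3:**
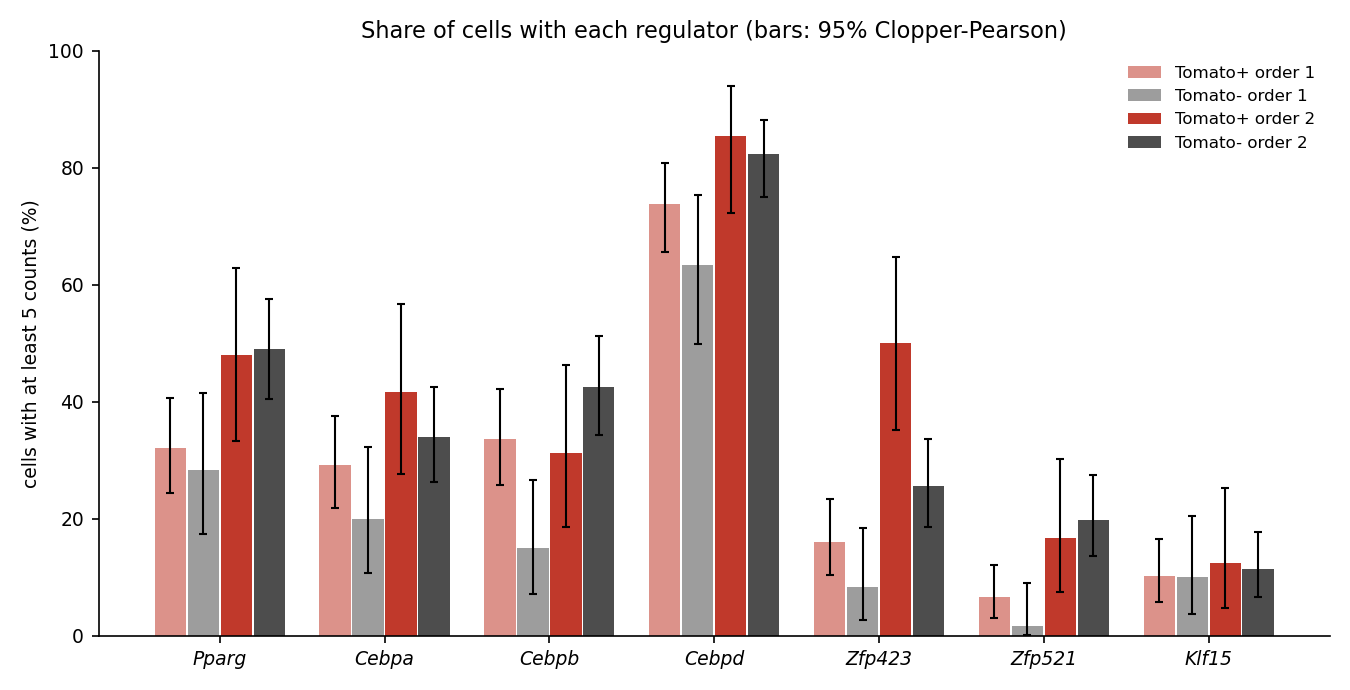
Share of cells with at least 5 counts of each regulator, in percent, by group and order. Error bars are exact Clopper-Pearson 95% intervals. The bars of Zfp423 in order 2 stand at 50% and 25.5%, and for Cebpd all 4 bars stand above 60%.

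Because Zfp423 was the gene called higher by the size rule, its upstream sequence is shown. It is the 250 bases before the more upstream of 2 RefSeq starts, from the promoter table on GRCm38.p6, chr8:87959596-87959845, minus strand. Capitals mark matches to a C/EBP core, TTGCNNAA, and to a GC box, GGGCGG.
Zfp423: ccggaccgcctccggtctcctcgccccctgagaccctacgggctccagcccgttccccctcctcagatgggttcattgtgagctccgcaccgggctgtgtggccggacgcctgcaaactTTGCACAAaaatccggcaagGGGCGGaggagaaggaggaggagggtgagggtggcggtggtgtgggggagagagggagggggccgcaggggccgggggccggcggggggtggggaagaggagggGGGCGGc

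The stretch is rich in G and C (71.6%, against a median of 52.4% over all windows), and it holds 1 C/EBP core and 2 GC boxes. On either strand, 9.56% of the 32851 windows of this length hold the C/EBP core and 32.7% the GC box. Windows were found for 7 of the 10 genes, 12 in all. The C/EBP core was met in 2 of these windows, in Zfp423 and upstream of the most downstream of 3 Pparg starts, and the GC box in 6, in Cebpb, Klf15, Pparg and Zfp423. The C/EBP palindrome, TTGCGCAA (0.164% of all windows), and the DR1 repeat, the direct repeat known to bind Pparg with its partner Rxra (0.0335%), were in none of the 12. The palindrome is contained in the core motif, so a match to it would count in both.

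Zfp521, the antagonist of Zfp423 (chromosome 18, 13687013 to 13972787, minus strand), was too rare for its ratio to be read. Its level was 22.98 CPM in Tomato+ and 7.51 CPM in Tomato- cells of order 1, and 14.5 and 19.8 CPM in order 2. The order ratios were 1.49 and -0.42, of opposite sign. A single Tomato- cell of order 1 held 95.95% of that group's counts, and without the top cell of each group the order 1 ratio was 3.55 in place of 1.49. The share with at least 5 counts was 6.57% for Tomato+ (3.05 to 12.1) and 1.67% for Tomato- (0.0422 to 8.94) in order 1, while order 2 gave 16.7% (7.48 to 30.2) and 19.9% (13.6 to 27.4), with overlapping intervals in both.

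Pparg, the nuclear receptor at the centre of fat cell differentiation (chromosome 6, 115360951 to 115490399, plus strand), was at a lower level in Tomato+ cells of order 1 and at a like level in order 2. In order 1 the sets stood at 73.99 CPM (P1), 1.84 (P2) and 66.2 (P3) in Tomato+ and at 153.4 CPM in the Tomato- set N2. In order 2 the Tomato+ sets stood far apart, at 59.4 CPM in P1 and 192.1 in P2, on either side of the Tomato- sets at 130.8 and 125.4. The Tomato+ and Tomato- sets thus overlapped in order 2 and did not in order 1.

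The order ratios of Pparg were -1.10 and 0.08. The shares of cells with the gene lay close together within each order. With at least 5 counts required, order 1 gave 32.1% for Tomato+ (24.4 to 40.6) and 28.3% for Tomato- (17.5 to 41.4). Order 2 gave 47.9% (33.3 to 62.8) and 48.9% (40.4 to 57.5). A single Tomato- cell with 2876 CPM held 34.1% of its group's Pparg counts in order 1, and without the top cell of each group the ratios were -0.66 and -0.01. The direction in order 2 depended on which cells entered. Without the set P2 it was -1.09, without cells with at least 5 counts of Ptprc or Pecam1 it was -0.55, and without the 16 cells led by other markers -0.23. Pparg passed the rule as lower in 3 of the 24 alternative settings: without the set P2 of order 2, with both orders summed (-0.66), and without cells holding 3 markers of another cell type (-1.21 and -0.63).

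Cebpa, the partner of Pparg in mature differentiation (chromosome 7, 35119293 to 35121928, plus strand), differed less than 1.5-fold in both orders. It came to 45.4 CPM in Tomato+ (44.1 to 46.6) and 56.4 CPM in Tomato- cells (53.9 to 59) of order 1, and to 34.6 (32.6 to 36.7) and 30.2 CPM (29.1 to 31.4) in order 2. The ratios were -0.31 and 0.19. Single sets of one group differed more than the groups did, with 37.4 and 75.4 CPM in P1 and P3 of order 1 and 50.8 and 22.5 CPM in P1 and P2 of order 2. At least 5 counts were found in 31.1% of all 386 cells, and in 20% to 41.7% of the 4 combinations of group and order.

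Cebpb and Cebpd, the early factors, gave ratios of opposite sign in the 2 orders. Cebpb (chromosome 2, 167688915 to 167690418, plus strand) had 26.8 CPM in Tomato+ and 17.3 CPM in Tomato- cells of order 1, but 8.72 CPM against 16.3 CPM in order 2. Its ratios, 0.60 and -0.83, passed 1.5-fold in opposite directions. The order 1 value came from the set P1, at 34.8 CPM, while P2 and P3 stood at 0.459 and 2.60 CPM, and without P1 the order 1 ratio was -2.41. The Cebpb gene overlaps Tmem189, a gene on the opposite strand, and the counting is not stated to use strand.

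Cebpd (chromosome 16, 15887286 to 15891031, plus strand) stood at 425 CPM in Tomato+ (421 to 429) and 221 CPM in Tomato- cells (216 to 226) of order 1. In order 2 it stood at 249 CPM (243 to 254) and 347 CPM (343 to 351). The ratios were 0.94 and -0.48, and the Tomato+ level was the higher in 7 of the 7 library codes of order 1 that hold both groups. By set it ran from 29.4 to 505 CPM in the 5 Tomato+ sets and from 221 to 388 CPM in the 3 Tomato- sets, so the groups overlapped. Without the set P1 the order 1 ratio was -0.30. It overlaps Spidr on the opposite strand, and 29 of its values in the table were not whole numbers.

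Klf15, the late factor (chromosome 6, 90462576 to 90475238, plus strand), was found with at least 5 counts in 10.9% of all cells and did not pass the filter on low values. Its level was 21.3 CPM in Tomato+ and 15.5 CPM in Tomato- cells of order 1 and 14.6 and 15.1 CPM in order 2, with ratios of 0.43 and -0.04. Without the set P3 of order 1, at 41.3 CPM, the order 1 ratio was -0.01. The share with 5 counts was 10.2% and 10% in order 1, Tomato+ first, and 6 of 48 cells and 11.3% in order 2, with widely overlapping intervals.

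Most cells carried some regulators and none carried all. With at least 5 counts required, the median cell held 2 of the 7, 47 cells (12.2%, 9.09 to 15.9) held 0 and 5 cells held 6. The median was 2 in Tomato+ and 1 in Tomato- cells of order 1, where totals were also lower in Tomato- cells, and 3 in both groups of order 2. Pparg and Cebpa were found together in 63 cells, which is 41.2% of the cells with Pparg and 52.5% of those with Cebpa, while 31.1% of all cells held Cebpa. These shares pool groups and orders that differ in detection, so the next ones are given within them. In order 1, Pparg was found in 13 of the 22 Tomato+ cells and 4 of the 5 Tomato- cells that held Zfp423, and in order 2 in 13 of 24 and 21 of 36. Were the 2 genes detected independently, 7.07 and 1.42 cells would hold both in order 1, and 11.5 and 17.6 in order 2. Zfp521, the antagonist, was found with Zfp423 in 1 Tomato+ and 1 Tomato- cell of order 1, and in 4 and 11 cells of order 2. Independent detection would give 1.45 and 0.0833 such cells in order 1 and 4 and 7.15 in order 2. Within order 1 the level of Pparg had a Spearman rho of 0.36 with the number of genes detected and -0.0007 with the total count, and within order 2 it had 0.11 and 0.16.

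Adiponectin, lipoprotein lipase and apolipoprotein E transcripts were abundant in most stromal cells of both groups. Adipoq reached 1000 CPM in 308 cells (79.8%), Lpl in 226 (58.5%) and Apoe in 329 (85.2%), while 32, 58 and 21 cells fell under 100 CPM. Of the 12 blood-led cells, 11 fell under 100 CPM of Adipoq. The low cells were unevenly spread over the sets. Adipoq fell under 100 CPM in 23.7% of the cells of P3 of order 1 and 15.7% of N2 of order 2, against 2.13% of P1 of order 1 and 0% of P1 of order 2.

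Adipoq (chromosome 16, 23146536 to 23158028, plus strand) did not differ by 1.5-fold between the groups in either order. Its level was 2710 CPM in Tomato+ and 3477 CPM in Tomato- cells of order 1, and 3550 and 3265 CPM in order 2, giving ratios of -0.36 and 0.12. By set it ran from 2643 to 3990 CPM in the 4 larger Tomato+ sets and from 3140 to 3477 CPM in the Tomato- sets, and the 5 cells of P2 of order 1 gave 493 CPM. The median cell stood at 2151 CPM in Tomato+ and 2167 CPM in Tomato- cells of order 1, against 3014 and 3184 CPM in the other order.

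Lpl (chromosome 8, 68880491 to 68907448, plus strand) behaved likewise, with 1331 and 1729 CPM in order 1 and 2428 and 1969 CPM in order 2, and ratios of -0.38 and 0.30. One cell of P3 of order 1 held 51775 CPM, which is 11.6% of the Tomato+ Lpl counts of that order, with 120 CPM of Lepr. The set levels were 1074, 28.5 and 2292 CPM in P1, P2 and P3 of order 1 and 2076 and 2693 CPM in P1 and P2 of order 2, and those of the Tomato- sets, from 1729 to 1992 CPM, lay inside that span.

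Apoe (chromosome 7, 19696109 to 19699188, minus strand) was higher in Tomato+ cells in both orders but passed 1.5-fold in order 1 alone. It came to 6120 CPM in Tomato+ (6106 to 6135) and 3060 CPM in Tomato- cells (3041 to 3079) of order 1, and to 6290 (6262 to 6318) and 5277 CPM (5262 to 5292) in order 2. The ratios were 1.0 and 0.25. By set it stood at 6884, 9250 and 3321 CPM in P1, P2 and P3 of order 1 against 3060 CPM in N2, and at 6215 and 6347 CPM in P1 and P2 of order 2 against 5589 and 5028 CPM in N1 and N2. Within each order every Tomato+ set lay above every Tomato- set, though P3 of order 1 lay below the Tomato- sets of order 2.

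In 7 of the 7 shared library codes of order 1 the Tomato+ level of Apoe was the higher, with ratios from 0.35 to 3.93. Without the set P1 the order 1 ratio was 0.31, and without the 16 cells led by other markers the ratios were 0.99 and 0.12. Other measures moved the same way. The summed level of the 10 Lepr+ stroma markers was 58728 CPM in Tomato+ and 37454 CPM in Tomato- cells of order 1 and 73232 and 64879 CPM in order 2, and within order 1 Apoe had a Spearman rho of 0.35 with a cell's total count. Their part in the difference was not tested.

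**Figure D4:**
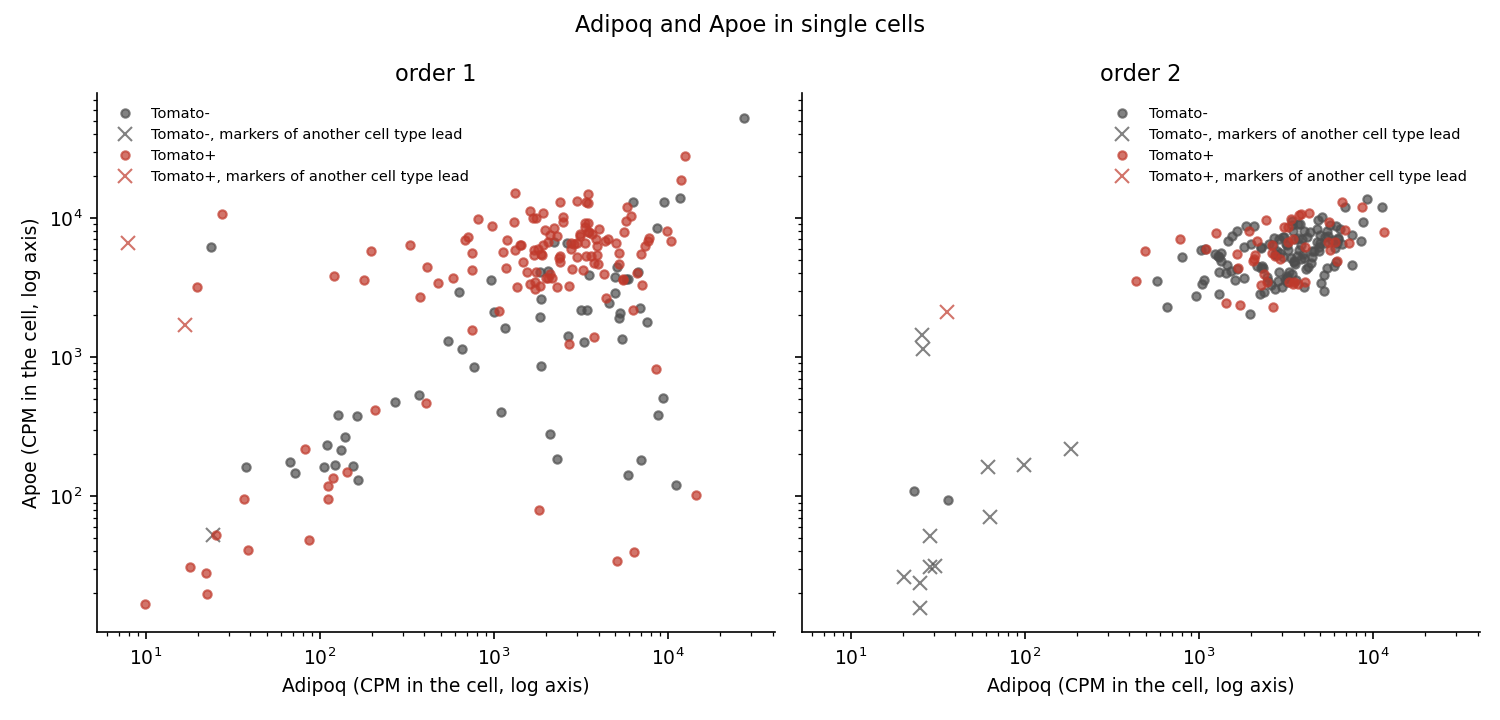
Adipoq against Apoe in each of the 386 cells, in CPM of the cell's own counts on log axes, order 1 at left and order 2 at right. Red marks Tomato+ and grey Tomato- cells, and crosses mark the 16 cells in which markers of another cell type outweigh the stroma markers. In order 2 most cells form 1 cloud above 1000 CPM of both genes, and in order 1 further cells lie below it in both groups.

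Adipoq and Apoe were found together in most cells but not in all. Both reached 1000 CPM in 294 cells (76.2%), neither did in 43 (11.1%), Apoe alone did in 35 and Adipoq alone in 14. The 1000 CPM border was set after the values were seen, and 10 cells lay between 900 and 1100 CPM for Adipoq and 0 for Apoe. All 14 cells with Adipoq alone belonged to order 1, 9 of them to the 60 Tomato- cells and 5 to the Tomato+ cells. Cells with neither made up 26.7% of the Tomato- cells of order 1 and 10.9% of the Tomato+ cells there, and 8.51% and 0% in order 2. Of the 12 such Tomato- cells of order 2, 10 were led by blood markers, and of the 15 such Tomato+ cells of order 1, 11 came from P3 (28.9% of that set, against 2.13% of P1).

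The upstream stretches of these 2 genes are shown because their levels went together across cells (Spearman rho 0.46, see the next paragraph). Each is the 250 bases before a RefSeq start on GRCm38.p6, for Adipoq chr16:23146286-23146535 on the plus strand and for Apoe, at the most upstream of 3 starts, chr7:19699189-19699438 on the minus strand. None of the 4 motifs searched was found in either on either strand, so all letters are lower case.
Adipoq: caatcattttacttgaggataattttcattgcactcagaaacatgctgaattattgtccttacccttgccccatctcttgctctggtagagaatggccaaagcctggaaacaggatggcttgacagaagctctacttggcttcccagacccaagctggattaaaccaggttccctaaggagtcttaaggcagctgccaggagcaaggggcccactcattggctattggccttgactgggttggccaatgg
Apoe: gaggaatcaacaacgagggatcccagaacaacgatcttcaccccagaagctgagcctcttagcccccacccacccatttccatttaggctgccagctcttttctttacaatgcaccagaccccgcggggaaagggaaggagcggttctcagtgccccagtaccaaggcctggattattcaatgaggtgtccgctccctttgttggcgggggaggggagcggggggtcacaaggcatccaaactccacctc

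Averaged over the 2 orders, the rank correlations among the secreted products were higher than those among the regulators. Spearman's rho of log2(CPM + 1) was taken over the cells of each order (386 in all) and averaged. Adipoq and Apoe gave 0.46 (0.37 and 0.54 in the 2 orders), Adipoq and Lpl 0.34 (0.40 and 0.27) and Lpl and Apoe 0.23 (0.17 and 0.29). The 21 pairs of regulators had a median rho of 0.05, from -0.08 to 0.20, and the 21 pairs of a regulator with a product a median of 0.07, from -0.02 to 0.16. The highest regulator pair was Cebpb with Cebpd at 0.20 (0.22 and 0.18 in the 2 orders), so in order 1 it lay above Lpl with Apoe. Without cells with at least 5 counts of Ptprc or Pecam1 the product pairs, in the sequence above, averaged 0.40, 0.26 and 0.17. Cebpb with Cebpd then gave 0.18. Pparg gave 0.11 with Cebpa and 0.12 with Zfp423 over all cells. These values describe cells that share libraries and depth. Many cells had no count of most regulators, Cebpd excepted, and what that does to their rho was not tested.

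**Figure D5:**
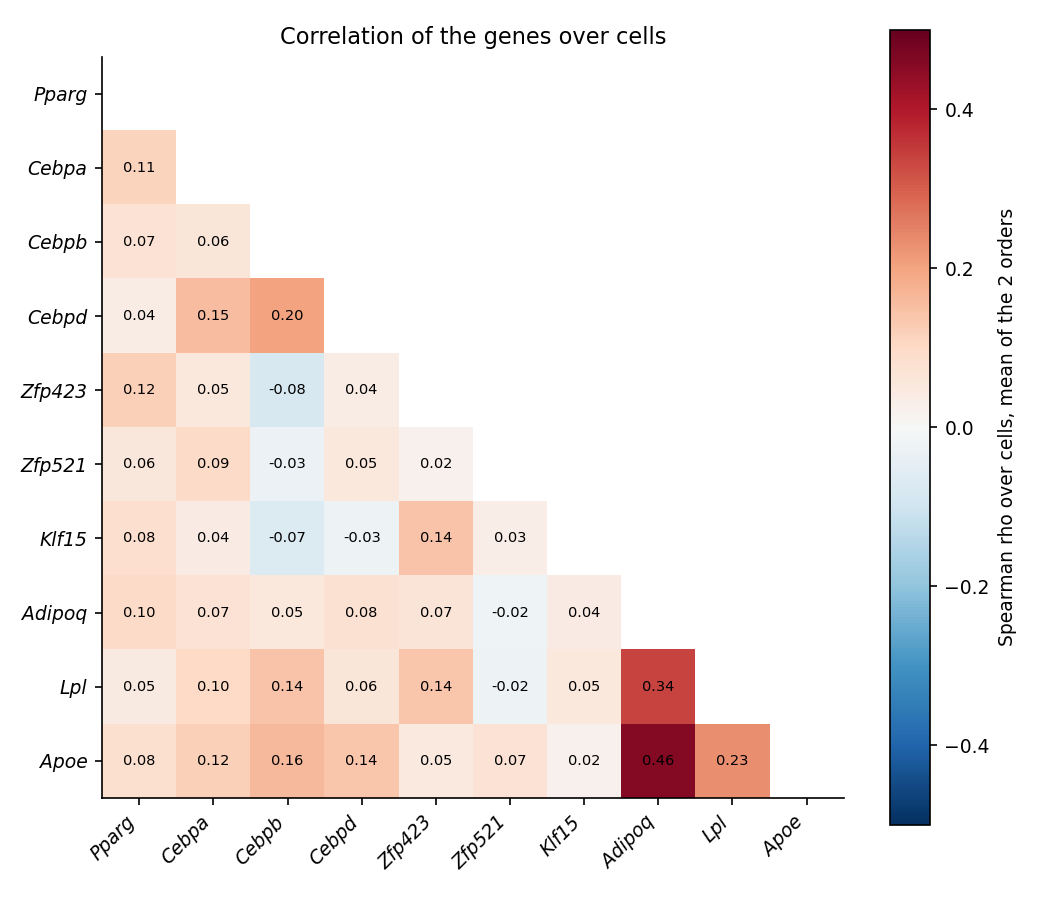
Spearman rho of each pair of the 10 genes over cells, averaged over the 2 orders, with colour from -0.5 (blue) to 0.5 (red). The 3 pairs of Adipoq, Lpl and Apoe range from 0.23 to 0.46, and the pairs that include a regulator from -0.08 to 0.20.

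Genes that varied most like each member were taken as the top 3 by averaged rho, with a rho of at least 0.3, among 5742 or 5743 genes. For Apoe they were Agt (0.49), which encodes angiotensinogen, Gpx3 (0.47), a secreted glutathione peroxidase, and Adipoq. For Adipoq they were Apoe, the kininogen gene Kng2 (0.40) and the complement gene C4b (0.39), and for Lpl they were Adipoq, Ms4a4d (0.33) and Kng2 (0.33). For Cebpb they were Ifrd1 (0.41), the mRNA decay factor gene Zfp36 (0.40) and Fosb (0.38), and for Cebpd Junb alone (0.32); Fosb and Junb encode AP-1 subunits that respond to stress and growth signals within minutes. No gene reached 0.3 with Pparg, Cebpa, Zfp423, Zfp521 or Klf15.

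In 5 wider lists of the adipocyte programme, 1 gene was called. With 3.24% of all genes higher and 4.54% lower, lists of 5 to 17 genes past the filter would hold few calls in any case, so nothing is read from these counts. Of 22 activators and partners of adipogenic transcription, all measured, 17 passed the filter, 1 was higher in Tomato+ cells and 0 were lower, with a median ratio of 0.09. The higher gene was Zeb1, a zinc finger factor, at 84.3 and 48.7 CPM in order 1 and 27.6 and 15.3 CPM in order 2 (ratios 0.78 and 0.81). A single cell held 36.7% of its counts, and without the 16 cells led by other markers its ratios were 0.64 and 0.23, so the call was lost. The 2 genes with the highest summed levels differed little: Ebf1, a determinant of marrow stroma, had ratios of -0.06 and -0.07, and the Krüppel-like factor gene Klf9 had 0.02 and -0.38. Of 16 inhibitors of adipogenesis, 15 were measured (Wnt10b had no count), 9 passed the filter and 0 were higher or lower, with a median of -0.05. Sox9 had ratios of -0.55 and -0.40, and the Notch target Hes1 -1.07 and 0.74.

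Most genes that mark lipid-laden fat cells did not pass the filter on low values. Of 23 adipocyte products and Pparg targets, 19 were measured, 6 passed the filter and 0 were higher or lower, with a median of 0.19. Fabp4, a fatty acid binding protein of both adipocytes and capillary endothelium, had levels of 156.03 and 122.4 CPM in order 1, Tomato+ first, but of 369 and 3.73 CPM in order 2, a ratio of 6.29. The 16 cells led by other markers held 90.1% of its counts, and without them it had 16.8 and 23.7 CPM in order 1, where the ratio turned from 0.35 to -0.47, and 11.5 and 4.11 CPM in order 2, where it was 1.29. Likewise 82.6% of the counts of Cd36, a fatty acid receptor, came from those cells. Scd1, a desaturase of fat cells, had 53.1 and 55.7 CPM in order 1 and 135.9 and 62.8 CPM in order 2, with ratios of -0.07 and 1.10.

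Partners of Lpl, Apoe and adiponectin gave no call either. Of 15 partners of lipoprotein lipase and apolipoprotein E, 14 were measured, 7 passed the filter and 0 were higher or lower, with a median of 0.27. Angptl4, which inhibits the lipase, stood at 380 and 253 CPM in order 1 and 705 and 527 CPM in order 2, with ratios of 0.58 and 0.42. Without the 16 cells led by other markers its ratios were 0.59 and -0.10, so the direction in order 2 turned. Lrp1, a receptor for Apoe, had ratios of 0.76 and 0.37. Gpihbp1, which anchors the lipase on capillary endothelium, had 25.97 and 0.0912 CPM in order 1 and 8.72 and 0 CPM in order 2, Tomato+ first. It lay under the filter, and 99% of its counts came from the 16 cells led by other markers. Of 6 adiponectin receptors and secretion factors, 5 passed the filter and 0 were higher or lower, with a median of 0.01; Erp44, an endoplasmic reticulum retention factor, had ratios of -0.01 and -0.27, and the receptor gene Adipor1 0.50 and -0.39.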

How the data were processed

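Each of the 388 samples is 1 cell, and its values stand in 1 deposited table of 25000 gene symbols. The authors deposited expected counts, which the file headers of order 1 name as RSEM gene results and those of order 2 do not name; 4.91% of those above 0 were not whole. The build GRCm38 and the tools StringTie 1.3.3b, HISAT and HTSeq 0.6.0 are listed, without their roles, in the submitters' processing notes. Whole transcripts were amplified, per the labels' protocols, which mention no molecular identifiers, and 1 molecule can therefore yield many counts.

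Groups came from the labels; each column matched a group and title set by its name, 0 columns were duplicates and 0 were unused. Counts were rounded, cells with at least 1000 genes and 10000 counts kept, and no doublet caller was run. Counts were summed per group and order and scaled to CPM, and ratios were averaged over the 2 orders, with a pseudocount of 1 CPM; this understates changes of low genes. With 1 sample per group no test was made. Intervals (95%) are exact Poisson for levels and Clopper-Pearson for shares, and cover counting error only. For a count of 0 a floor of 3 counts was set as a separate rule, which is not the upper end of these intervals. Pool filtering set counts under 1% of the gene's largest count in the same library pool to 0. The members, lists, markers and naming rule (all members, list genes past the size rule, and the 2 of highest level per list) were chosen with earlier results of these data known; Fabp4, Cd36 and Gpihbp1 beyond them, and the class of 16 cells led by other markers, were chosen after their values were seen. On simulated data, the size rule was run with planted changes far larger than 1.5-fold, so its behaviour near that border was not tested. The correlation step was run on a planted pair. Python 3.11.15, pandas 2.3.3, numpy 2.4.6, scipy 1.17.1 and matplotlib 3.10.9 were used, with coordinates from GENCODE on GRCm38 and promoter windows from RefSeq.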

Additional observations from a re-analysis of the deposited data

Results flagged for a closer look

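Cebpb passed 1.5-fold in opposite directions in the 2 title orders: its log2 ratio, Tomato+ over Tomato-, was 0.60 in order 1 and -0.83 in order 2. This difference between the orders was not tested. Without the set P1 of order 1 the order 1 ratio was -2.41, and without the set N1 of order 2 the order 2 ratio was -0.10. Single cells weighed on both groups of order 1. There 1 Tomato+ cell of P1 held 23.6% of the Cebpb counts of its group, and 1 Tomato- cell, at 661 CPM, held 39.9% of those of its own. Cebpb had at least 5 counts in 33.6% of Tomato+ and 15% of Tomato- cells of order 1, and in 31.2% and 42.6% in order 2.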

How the results depend on the processing

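Zfp423 was called higher under all 24 alternatives, with a mean ratio of 1.03 to 1.84 in the 22 that gave one, and Apoe stayed above 0 in 22 of 22 (0.25 to 0.72). The other 8 ratios took both signs: Pparg ran from -1.10 to 0.08, Zfp521 from -0.42 to 1.42, Cebpb from -1.62 to 0.44, Cebpd from -0.48 to 0.50, Cebpa from -0.36 to 0.55, Klf15 from -0.11 to 0.87, Adipoq from -0.38 to 0.12 and Lpl from -0.29 to 0.30. Of the 22 values, 1 was above 0 for Pparg and for Adipoq, 5 for Cebpb and for Lpl and 7 for Cebpa. For Klf15 it was 18, for Cebpd 19 and for Zfp521 21. The single exception of Pparg, Adipoq and Zfp521 came without N2 of order 1, where only order 2 remained. The count of members higher was 1, but 2 (Klf15 added) without cells holding 3 markers of another cell type. Members lower were 0, but 1 (Pparg) in that setting and with both orders summed; with 1 title set left out at a time, members higher were 1 to 1 and members lower 0 to 1. The causes were not tested.

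Of all genes tested, 3.24% were higher and 4.54% lower. These shares were 1.55% and 2.68% with a pseudocount of 10 CPM, 14.8% and 15.6% with both orders summed, and 6.18% and 7.65% without cells holding 3 markers. They were 2.39% and 3.43% after pool filtering, and 1.09% and 2.15% within the shared library codes of order 1 and the equally numbered sets of order 2. At 2-fold they were 0.535% and 1.48%. Without the filter on low values they were 3.22% and 3.5% of all 25000 gene rows. Only 16151 of those rows had a count in a kept cell, and a row without one cannot be called. With 1 title set left out they ran from 3.22% to 8.60% and from 4.23% to 15.3%; without N2 of order 1 only order 2 remained. The mean of per-cell CPM and leaving out each gene's top cell moved the median of all genes from 0.01 to 0.14 and 0.11. Of 45 gene pairs, 3 moved by 0.1 or more when sets were centred: Adipoq with Apoe (0.56), Lpl with Apoe (0.36) and Zfp423 with Zfp521 (0.15). No paired analysis was possible because each group is 1 sample and the numbers of cells pair none of them; ratios within shared library codes and equally numbered sets are splits, not tests, and the labels do not say that such sets belong together. Depth limits the sparse regulators: a share of 0 of 12 cells allows up to 26.5%.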
